A study of Homo sapiens with 16 samples.

Results

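The 4 HOX clusters of the human genome were examined for CTCF and p53 binding in human mammary epithelial cells before and after transformation by oncogenic HRas. All peaks of 8 ChIP-seq peak lists that lay between 100 kb before the first and 100 kb after the last of the HOX genes described here were taken, cluster by cluster, on the hg19 build. The 38 HOX genes spanned HOXA2 to HOXA13 on chromosome 7, HOXB1 to HOXB13 on chromosome 17, HOXC4 to HOXC13 on chromosome 12 and HOXD1 to HOXD13 on chromosome 2. These windows held 114 of 76863 peaks. For each factor, peaks of different libraries that touched by at least 1 bp were joined into sites, which left 36 sites in the windows, 35 of CTCF and 1 of p53, of 32044 sites in the genome.

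The parental cells were MCF10A, an immortalized, non-transformed mammary epithelial line. The G12V cells were the same line carrying H-RAS Gv12, delivered by lentivirus and selected with hygromycin, and both were used within few passages. Each factor was mapped in 2 replicates of each cell type, which the methods call biological without saying how the cultures were separated. The p53 libraries, of both cell types, came from cells given Nutlin, which stabilizes p53, and the labels give no such treatment for the CTCF libraries. RNA was not part of these files, and none of the values below speak of HOX expression.

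HOX genes encode homeodomain transcription factors that give cells their position along the body axis. Within a cluster the genes are transcribed in the same direction, and their order along the chromosome mirrors the order in which they are used from head to tail. Genes at the same place in different clusters, the paralogs, carry the same number, from group 1 at the 3′ end to group 13 at the 5′ end. The zinc-finger protein CTCF binds DNA in an orientation set by its motif, stops loop extrusion by cohesin, and is known to separate active from silenced HOX genes. p53 is a stress-activated transcription factor, and HOXA5 is known as an activator of its gene in breast cells.

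The sequences below show how the CTCF core motif appeared at sites between HOX genes, since the motif gives each site a direction and the sites recur at the same paralog positions. Each line reads 5′ to 3′ along the motif strand from the hg19 sequence, with the 12 bases of the core in capitals and 9 bases on either side. The first 6 matched the core with at most 1 mismatch.

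HOXA5–HOXA6: gccctgcctCCAGCGGGTGGCgctcgagtc
HOXA7–HOXA9: aaacggcggCCAGCAGATGGCagtgtggct
HOXA10–HOXA11: gcgcagccgCCACGAGATGGCgcacttccg
HOXB8–HOXB9: gcagagcagCCGCTAGATGGCacccttgct
HOXD8–HOXD9: ggcatttggCCACTAGAGAGCgctgttgct
HOXD12–HOXD13: gcccaatgcCCAGGAGATGGCgagcgcgct
HOXB5–HOXB6: tgcagggagCCAGCAGGGAGGcagccgccc
HOXB6–HOXB7: tccgaacggACGGTAGATGGCagcagaccg
HOXC5–HOXC6: cccacatagGCACCAGGTGTCgctgtgggc
HOXC8–HOXC9: aggaaggaaCCTCCAGATGGGtgctcaaga
HOXC10–HOXC11: ccgaggcagCTGCTAGATGGCgctgttact
HOXD10–HOXD11: cctggagatCCACACGAGGGCgcgctcacg
HOXA4–HOXA5: taggaatcgCCAGCAGAGCACgctttagta
HOXB4–HOXB5: ccggagctgCCAGTAGAGTCCgccttagac

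The last 8 carried 2 mismatches and are shown because they lay at paralogous positions. In HOXA the capitals stood at chr7:27176192-27176203, chr7:27183535-27183546, chr7:27200757-27200768 and chr7:27219525-27219536, from HOXA4–HOXA5 to HOXA10–HOXA11, all on the minus strand. In HOXB they stood at chr17:46662899-46662910, chr17:46671463-46671474 and chr17:46696108-46696119 on the minus strand, and at chr17:46680115-46680126 on the plus strand. In HOXC they stood at chr12:54378758-54378769 and chr12:54426526-54426537 on the plus strand, and at chr12:54399809-54399820 on the minus strand. In HOXD they stood at chr2:176962487-176962498 on the minus strand, and at chr2:176976123-176976134 and chr2:176991933-176991944 on the plus strand. HOXA and HOXB genes are read from the minus strand and HOXC and HOXD genes from the plus strand, so of these motifs those of HOXB6–HOXB7, HOXC8–HOXC9 and HOXD12–HOXD13 pointed against HOX transcription and the others along it. Sites in the gap from HOXB9 to HOXB13 and between HOXD4 and HOXD8 are not shown, and the counts over all sites are given with the motif shares.

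CTCF sites were found in every cluster, and most of them lay among the genes rather than in the flanks. The HOXA window held 10 sites, HOXB 13, HOXC 5 and HOXD 7. Of these, 7, 8, 4 and 5 lay between the first and the last gene, 24 in all. Per 100 kb there were 4.66 sites between the first and last HOX genes, against 0.939 over the genome. HOXA was the densest with 7.02 sites per 100 kb of gene span, HOXD had 5.09, HOXB 4.00 and HOXC 3.41.

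**Figure D1:**
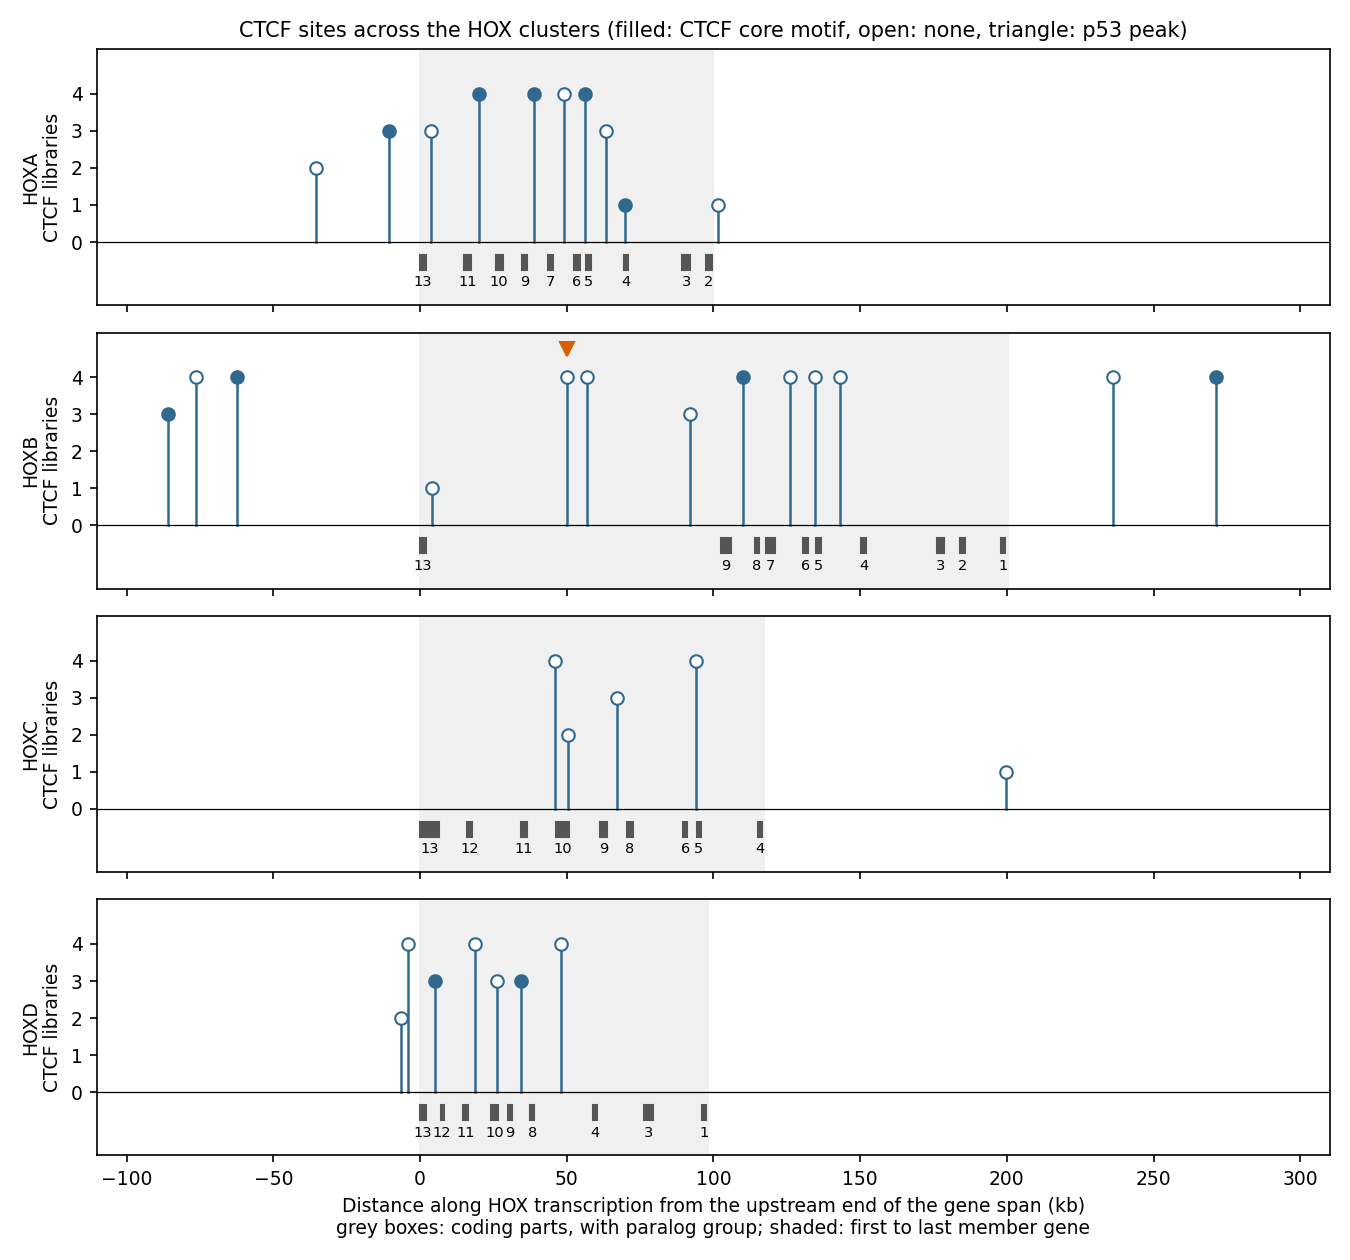
CTCF sites of the 4 HOX windows, drawn along HOX transcription, with the distance in kb from the upstream end of the gene span on the x axis and the number of CTCF libraries (0 to 4) with a peak on the y axis. Sites cluster upstream and in the middle of each gene span, and no site lies inside a gene span on the 3′ side of the group 4 gene.

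The number of CTCF peaks in the windows did not separate the cell types. MCF10A replicates 1 and 2 had 24 and 32 peaks, and G12V replicates 1 and 2 had 24 and 33. The means were 28 ± 5.66 and 28.5 ± 6.36 (SD, n = 2 each), a difference of 0.5 peaks that was smaller than the spread within either cell type (exact two-sided permutation test, p = 1). As a share of the whole list, these were 0.212% and 0.159% for MCF10A, against 0.200% and 0.119% for G12V, a difference of -0.0256 percentage points (exact two-sided permutation test, p = 0.667). With 2 libraries against 2 this test has 6 assignments, of which the observed split and its mirror image always count, so it cannot pass a threshold of 0.05. The CTCF lists held 11346, 20136, 12004 and 27678 peaks in this order, so the 2 longer lists, both replicate 2, had more HOX peaks and a smaller share of them in the HOX windows.

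HOX peaks stood above the middle of their lists. Peaks were ranked within a list by their −log10 q, and the rank was written as a percentile on which 100 is the strongest peak. The median HOX percentile was 64.9 and 63.7 in MCF10A replicates 1 and 2 and 58.7 and 70.6 in G12V replicates 1 and 2. The means, 64.3 ± 0.862 and 64.6 ± 8.39 (SD, n = 2 each), differed by 0.306 (exact two-sided permutation test, p = 1). The percentiles depend on the length of the list, and the absence of a peak means only that the caller did not detect the site in that library.

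No site in the HOX windows was specific for either cell type, where specific means a peak in both libraries of that cell type and in neither of the other. The genome-wide shares of CTCF sites were 0.261% for MCF10A and 3.33% for G12V. In the HOX windows 19 of 35 sites (54.3%) had a peak in all 4 libraries, against 27.5% of all CTCF sites. A further 9 (25.7%) were missing from 1 library, against a background of 19.1%, and the library they were missing from was replicate 1 of MCF10A in 5 cases and replicate 1 of G12V in 4, the shorter list of each cell type. The remaining sites were 3 with a peak in replicate 2 of each cell type only (8.57%, background 20.1%) and 4 with a peak in 1 library (11.4%, background 29.7%). By cluster, HOXB had 10 sites in all 4 libraries, HOXA 4, HOXD 3 and HOXC 2.

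Some positions of the sites between neighbouring genes recurred from cluster to cluster, and others did not. Between the coding parts of neighbouring HOX genes there were 34 intervals, and 18 of them held a CTCF site. None of the 7 intervals between genes of groups 1 to 4 held a site, in HOXA, HOXB or HOXD, although these gaps were 5.42 to 24.3 kb long and added up to 98.5 kb. The other 27 intervals added up to 335.1 kb and held 21 sites, or 6.27 per 100 kb. Intervals with a site had a median gap of 7.95 kb and a range of 2.05 to 100.5 kb, and those without had 11.5 kb and 2.29 to 24.3 kb.

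The intervals between groups 5 and 6 and between groups 10 and 11 were occupied wherever they occurred. Groups 5 and 6 are neighbours in HOXA, HOXB and HOXC, with gaps of 2.05 to 3.16 kb, and all 3 gaps held a site found in all 4 libraries. Groups 10 and 11 are neighbours in HOXA, HOXC and HOXD, and all 3 gaps, of 7.69 to 9.85 kb, again held a site of all 4 libraries. Groups 6 and 7 had such a site in both clusters that keep the pair. Between groups 8 and 9 a site stood in HOXB in all 4 libraries, and in HOXC and HOXD in 3. In HOXA, which lacks group 8, the gap from HOXA7 to HOXA9 held a site of all 4 libraries. Clusters differed between groups 4 and 5, where HOXA and HOXB had a site and HOXC had none, and between groups 12 and 13, where HOXD had a site and HOXC had none. The 3 intervals between groups 9 and 10 and the 2 between groups 11 and 12 were empty. These are counts over few intervals in related clusters, and no test was made of them.

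**Figure D2:**
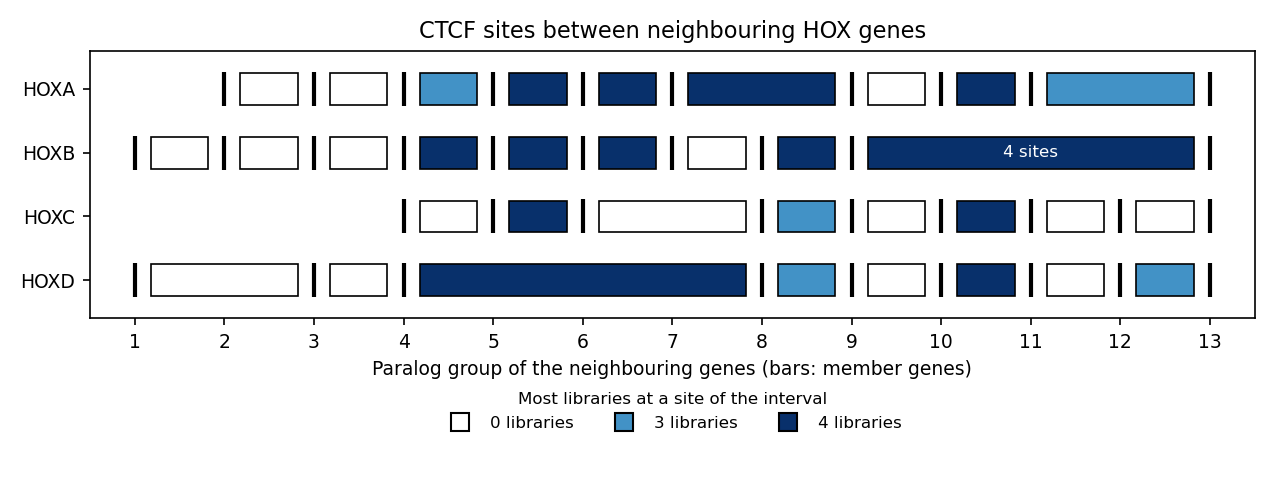
Intervals between neighbouring HOX genes by paralog group on the x axis, with 1 row per cluster and darker boxes where a CTCF site was found in more libraries. The boxes between groups 5 and 6 and between groups 10 and 11 are filled in each cluster that has them, and all boxes between groups 1 and 4 are empty.

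In HOXA, sites lined up from HOXA4 to HOXA13. The site between HOXA5 and HOXA6, at chr7:27183363-27183776, had its summit 265 bp before the start of HOXA5. Its fold enrichment over the local background was 9.39 and 19.7 in MCF10A replicates 1 and 2, and 4.95 and 9.38 in G12V replicates 1 and 2. Both G12V percentiles, 11.4 and 55.4, were below both MCF10A percentiles, 81.3 and 96.8. The site between HOXA6 and HOXA7, at chr7:27190306-27190797 in an intron of HOXA3, went the same way by rank, with fold enrichments that overlapped, of 11.1 and 16.1 in MCF10A, against 8.67 and 12.5 in G12V. The site between HOXA7 and HOXA9, at chr7:27200564-27201019 and outside any annotated gene, went the other way by rank, with overlapping fold enrichments of 7.72 and 11.7 in MCF10A, against 9.75 and 19.7 in G12V. HOXA9, best known for its part in leukaemia, starts 4376 bp upstream of it. This was the strongest HOXA site by the sum of its ranks over the 4 libraries, 3659, 7236, 2474 and 1416.

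The other HOXA sites were weaker or less regular. The site between HOXA10 and HOXA11, at chr7:27219305-27219736, had fold enrichments of 7.03 and 12.4 in MCF10A, against 5.83 and 11.4 in G12V, and the cell types overlapped by rank as well. The site between HOXA4 and HOXA5, at chr7:27176024-27176393, was missing from MCF10A replicate 1 and had fold enrichments of 10.0, 7.56 and 17.5 in the other 3 libraries. The site in an untranslated part of HOXA13, at chr7:27235868-27236204, was missing from G12V replicate 1 and had 6.98, 8.09 and 14.6 elsewhere. In the coding exon of HOXA4, at chr7:27169708-27169973, only MCF10A replicate 2 had a peak, with a fold enrichment of 4.39 and near the bottom of its list at a percentile of 1.49. The 3 HOXA sites outside the gene span were found in 3, 2 and 1 libraries.

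HOXB carried the strongest sites. The site between HOXB8 and HOXB9, at chr17:46695934-46696306 and 3503 bp upstream of HOXB8, ranked 73 of 11346 peaks in MCF10A replicate 1, 2602 of 20136 in replicate 2, 213 of 12004 in G12V replicate 1 and 227 of 27678 in G12V replicate 2. Its fold enrichments were 17.4 and 14.7 in MCF10A, against 12.7 and 23.6 in G12V, and the cell types overlapped. Next came the site between HOXB5 and HOXB6, at chr17:46671219-46671672, whose summit was 305 bp before the start of HOXB5. It had fold enrichments of 11.1 and 18.8 in MCF10A, against 9.20 and 27.0 in G12V, and its percentiles were 80.1 or higher in every library.

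The remaining HOXB sites flank the genes of groups 4 to 9 and fill the long gap to HOXB13. The site between HOXB4 and HOXB5, at chr17:46662690-46663126, had fold enrichments of 8.42 and 5.87 in MCF10A, against 7.74 and 15.5 in G12V. The site between HOXB6 and HOXB7, at chr17:46679868-46680370 in an intron of HOXB6, had 6.15 and 8.68 in MCF10A, against 7.95 and 19.1 in G12V. By rank both stood higher in the 2 G12V libraries than in the 2 MCF10A libraries. HOXB9 and HOXB13, a gene of prostate and hindgut, are 100.5 kb apart, and 4 sites lay between them. The site at chr17:46748970-46749522 had fold enrichments of 8.75 and 18.1 in MCF10A, against 5.96 and 13.2 in G12V. The next, at chr17:46755555-46756222, had 4.62 and 18.7 in MCF10A, against 8.20 and 20.2 in G12V, and the cell types overlapped. The site at chr17:46713794-46714199, in an exon of the long non-coding RNA LINC03057, was missing from MCF10A replicate 1 and had 7.84, 4.72 and 13.7 in the other libraries. That at chr17:46801939-46802164, in PRAC2, was found in MCF10A replicate 1 only, with a fold enrichment of 5.30. The flanks of HOXB held 5 more sites, 4 of them in all 4 libraries.

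HOXC had the fewest sites. The site between HOXC5 and HOXC6, at chr12:54426324-54426749, was its strongest, and its summit lay 273 bp before the start of HOXC5. Fold enrichments were 11.5 and 18.0 in MCF10A, against 4.57 and 12.7 in G12V, and by rank both G12V libraries stood below both MCF10A libraries. The site between HOXC10 and HOXC11, at chr12:54378560-54378922, had its summit 188 bp before the start of HOXC10 and fold enrichments of 10.3 and 8.81 in MCF10A, against 7.95 and 12.5 in G12V. Between HOXC8 and HOXC9, at chr12:54399703-54400064, the peak was missing from G12V replicate 1 and had 9.07, 7.62 and 11.3 in the other libraries. In a coding exon of HOXC10, at chr12:54382925-54383257, only replicate 2 of each cell type had a peak, with 5.14 in MCF10A and 6.34 in G12V. A last site, in the flank downstream of HOXC4, was found in 1 library.

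In HOXD the sites were packed at the 5′ end, from just outside HOXD13 to the gap before HOXD4. The site between HOXD10 and HOXD11, at chr2:176975893-176976351 and outside any annotated gene, was the strongest, with fold enrichments of 9.24 and 16.2 in MCF10A, against 7.95 and 32.8 in G12V. The last was the largest fold enrichment of any HOX peak, at rank 201 of that list. The site between HOXD8 and HOXD9, at chr2:176991696-176992163, was nearly as strong in the 3 libraries that had it, with 10.0 and 16.9 in MCF10A and 29.7 in G12V replicate 2, and was missing from G12V replicate 1. The site between HOXD4 and HOXD8, at chr2:177005140-177005767, had 7.89 and 9.84 in MCF10A, against 6.46 and 12.5 in G12V. Between HOXD12 and HOXD13, at chr2:176962294-176962707, fold enrichments were 6.82, 9.52 and 6.41, with no peak in G12V replicate 1. The coding exon of HOXD10, at chr2:176983578-176983980, had weak peaks in 3 libraries, of 7.96, 5.30 and 4.95, at percentiles of 23.9, 13.2 and 4.49. Just upstream of HOXD13 lay a site of all 4 libraries and a site of 2.

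**Figure D3:**
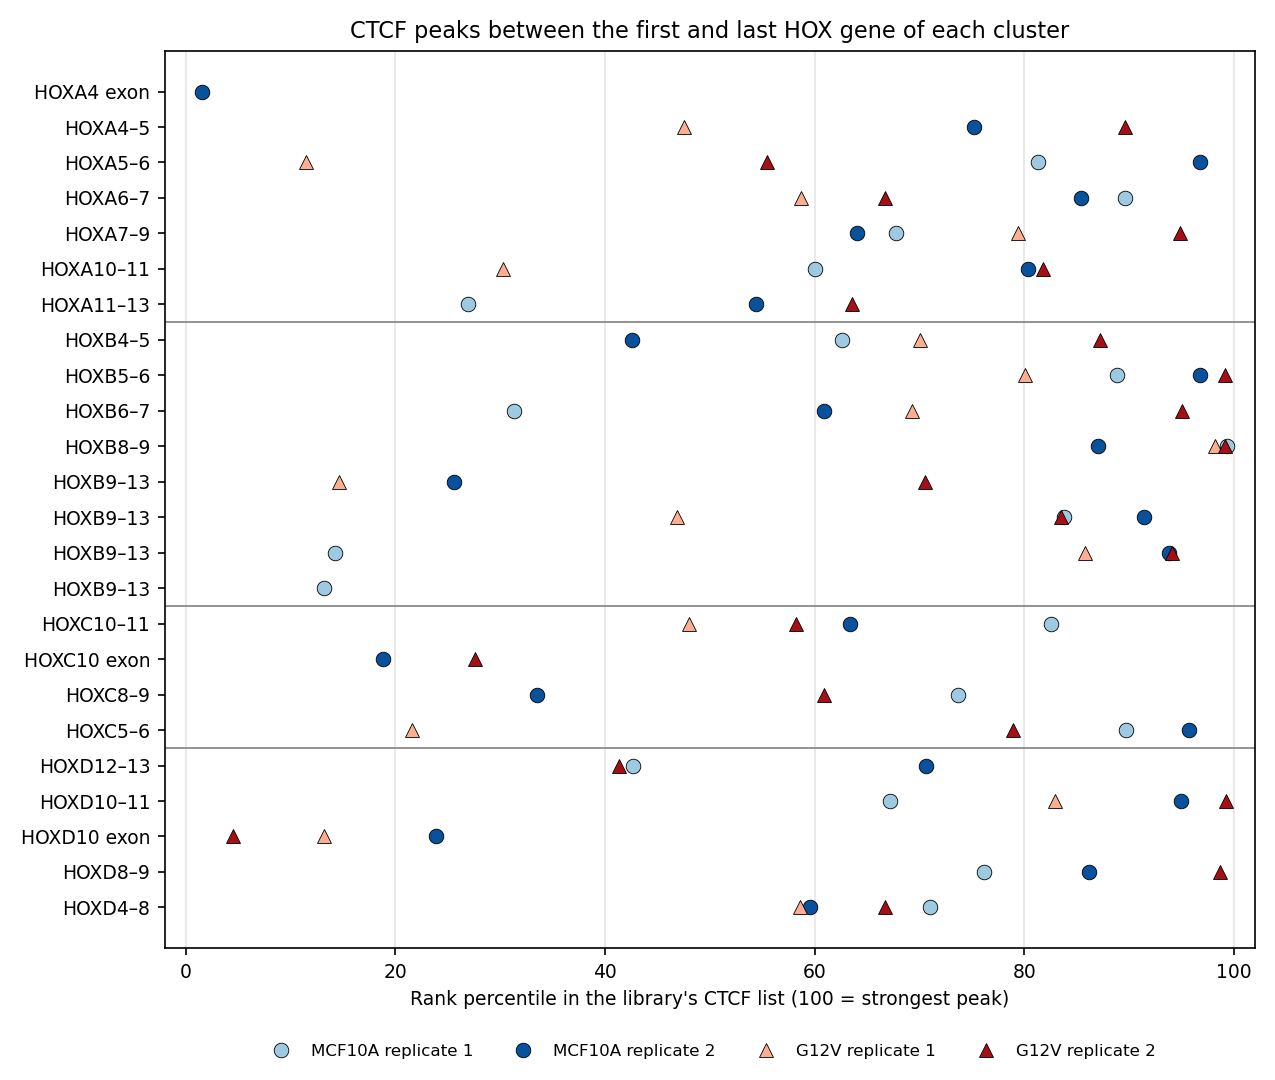
Rank percentile in the library's own CTCF list (x axis, 100 is the strongest peak) for each site between the first and last gene of a cluster (rows), with circles for MCF10A and triangles for G12V. HOXB5–6 and HOXB8–9 lie at or above 80.1 in all 4 libraries, while at HOXA5–6, HOXA6–7, HOXC5–6 and HOXC10–11 both triangles lie left of both circles. The same holds narrowly (83.5 against 83.8) at the HOXB9–13 site chr17:46748970-46749522. By percentiles among sites of all 4 libraries, which are not drawn, HOXC10–11 overlaps.

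CTCF stood close before the start of each group 5 gene. The summits stood 265, 305 and 273 bp before the starts of HOXA5, HOXB5 and HOXC5. HOXD has no group 5 gene. Promoters, taken from 1000 bp before to 500 bp after a start, held a CTCF site at 5 of the 38 HOX genes (13.2%), namely HOXA4, HOXA5, HOXB5, HOXC5 and HOXC10, and 11.9% of all protein-coding genes had one. HOX promoters as a whole were therefore near the background share.

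HOX cofactors, homeodomain proteins of the TALE class that bind DNA together with HOX proteins, were looked up the same way. Of 8 such genes, among them MEIS1, MEIS2, MEIS3, PKNOX1 and PKNOX2, 1 had a CTCF site at its promoter. This was PKNOX2, with a site of all 4 libraries 204 bp before its start and fold enrichments of 7.02 and 6.03 in MCF10A, against 5.96 and 14.5 in G12V. None of these 8 promoters and no HOX promoter had a p53 site, and 0.775% of protein-coding genes had one.

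Neighbouring CTCF summits in the HOX windows were close together. The median distance was 13.8 kb over 31 neighbouring pairs, against 45.8 kb over all CTCF sites of the genome. Between the first and last genes it was 11.8 kb. By window the medians were 14.1 kb in HOXA, 17.0 kb in HOXB, 21.7 kb in HOXC and 8.71 kb in HOXD. Under 20 kb stood 71.0% of the HOX pairs and 29.8% of all pairs. Counting only sites of all 4 libraries, the medians were 18.7 kb in the HOX windows and 119.6 kb over the genome. Gaps that crossed the edge of a window or gene span were left out of the HOX values. The genome values hold all gaps within chromosomes, so the HOX medians lack some long gaps.

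**Figure D4:**
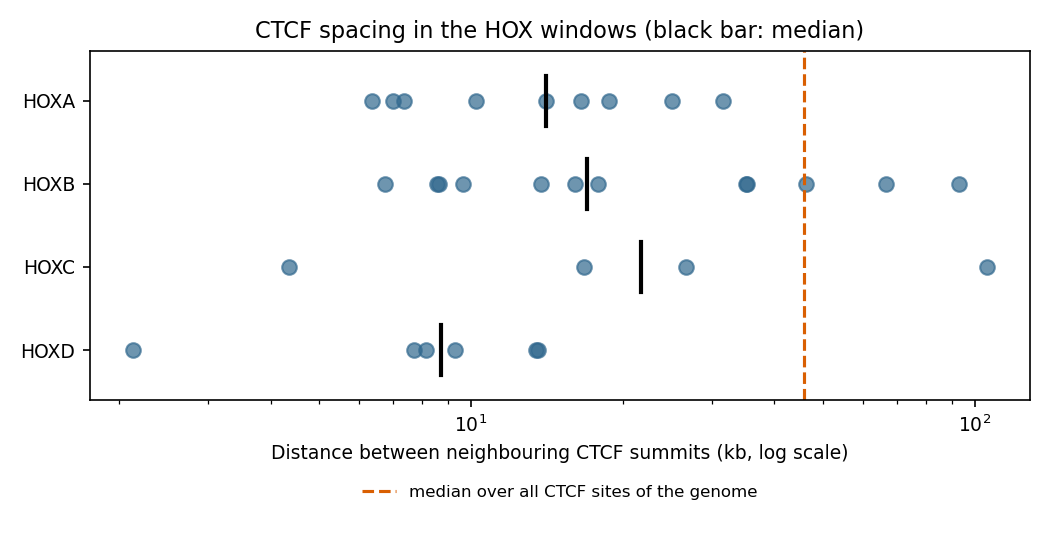
Distance in kb (log scale, x axis) between neighbouring CTCF summits in each HOX window, with black bars at the medians and the genome median of 45.8 kb as a dashed line. All distances in HOXA and HOXD lie below the dashed line, and some in HOXB and HOXC lie above it.

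Few HOX sites carried a good CTCF motif, including those bound in every library. With at most 1 mismatch in the 150 bp around the summit, the core motif was found at 11 of 35 HOX sites (31.4%, exact 95% binomial interval 16.9 to 49.3%), against 52.1% of all CTCF sites and 1.22% of windows 2000 bp beside the summits. Of HOX sites in all 4 libraries 6 of 19 had it (31.6%, 12.6 to 56.6%), against 67.5% of such sites over the genome. HOXA had it at 5 of 10 sites, HOXB at 4 of 13, HOXD at 2 of 7 and HOXC at 0 of 5. Only the HOXA7–HOXA9 site matched without a mismatch, which is 1 of the 11 motifs, and 32.6% of the motifs over the genome did. Sites, not cultures, are the units of these shares, and the intervals cover counting error only.

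The gap to other CTCF sites narrowed when 2 mismatches were allowed. At most 2 mismatches were found at 26 of 35 HOX sites (74.3%, exact 95% binomial interval 56.7 to 87.5%), at 80.7% of all CTCF sites and at 10.8% of windows beside the summits. Among sites of all 4 libraries the shares were 89.5% and 91.3%. The HOXB5 and HOXC5 promoter sites, without a motif at 1 mismatch, each had 1 at 2 mismatches, 23 and 29 bp from the summit.

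**Figure D5:**
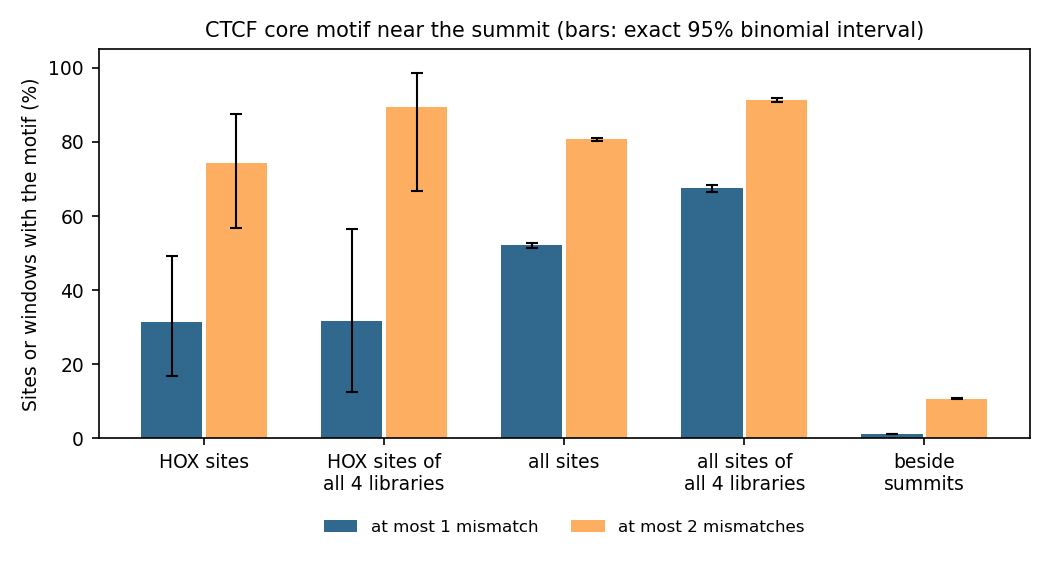
Share of sites or windows (y axis, %) with the CTCF core motif within 150 bp around the summit, for at most 1 and at most 2 mismatches, with exact 95% binomial intervals. At 1 mismatch HOX sites stand at 31.4% and all sites at 52.1%, and at 2 mismatches they stand at 74.3% and 80.7%.

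The direction of the motifs was counted against HOX transcription. With at most 1 mismatch 6 of 7 motifs in the gene spans pointed along it (85.7%, exact 95% binomial interval 42.1 to 99.6%), and 2 of 4 in the flanks. With at most 2 mismatches it was 13 of 19 in the gene spans (68.4%, 43.4 to 87.4%) and 16 of 26 over the windows (61.5%, 40.6 to 79.8%), and both intervals hold the 50% of an even split. All 4 HOXA motifs of the gene span at 1 mismatch pointed towards the 3′ end of the cluster. In HOXB, with at most 2 mismatches, the sites from HOXB4 to HOXB6 and between HOXB8 and HOXB9 pointed the same way, and the sites between HOXB6 and HOXB7 and 3 in the gap to HOXB13 pointed against it.

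The paralogous sites were not copies of the same sequence. Over the 26 sites with a motif of at most 2 mismatches there were 325 pairs of 30-base sequences, which shared a median of 13 bases and at most 21. HOXA5–HOXA6 shared 12 bases with HOXB5–HOXB6 and 15 with HOXC5–HOXC6, and the latter pair shared 12. HOXA10–HOXA11 shared 19 with HOXC10–HOXC11 and 16 with HOXD10–HOXD11. HOXA4–HOXA5 and HOXB4–HOXB5 shared 19, of which 10 of 18 lay outside the core. The most alike, at 21 of 30, were HOXA10–HOXA11 with HOXB8–HOXB9 and HOXB8–HOXB9 with HOXC10–HOXC11, which are not paralogous positions.

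HOX sites were rich in G and C. The 150 bp around the summit had a median of 61.3% G and C at the HOX sites, with a range of 37.3 to 78.7%, and 52.0% at all CTCF sites. The median number of CpG dinucleotides was 9, against 3. Sites of the genome in all 4 libraries had medians of 57.3% and 4. Such sites made up a larger share of the HOX sites than of all CTCF sites. HOXA sites were the highest with 65.7% and HOXC sites the lowest with 54.7%.

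Among the 19 sites of all 4 libraries, the order of the cell types was compared by percentiles among such sites of the genome. Each library was thus ranked over the same sites, but the list lengths still entered, since the shorter lists limited which sites counted. Both G12V libraries stood above both MCF10A libraries at 6 sites, and below them at 4, with overlap at 9. Over the genome 16.8% of 8006 such sites stood above and 16.6% below. The sites above were 5 of HOXB, namely HOXB4–HOXB5, HOXB6–HOXB7 and 3 in the flanks, and HOXA7–HOXA9. The sites below were HOXA5–HOXA6, HOXA6–HOXA7, HOXC5–HOXC6 and the HOXB9–HOXB13 site at chr17:46748970-46749522. None of the 3 HOXD sites was separated. Without the flanks, and likewise with lists of equal length, 3 sites stood above and 4 below, and with equal lists the sites of all 4 libraries were 13 in place of 19. HOXB thus gave 5 of its 10 sites above and 1 below, while chromosome 17 as a whole had 26.4% above and 13.9% below. The HOXB sites above were 2 in place of 5 without the flanks and with lists of equal length.

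The separated sites were followed by their percentiles among sites of all 4 libraries. At HOXA5–HOXA6 these were 75.6 and 92.8 in MCF10A, against 7.29 and 15.7 in G12V. At HOXC5–HOXC6 they were 86.1 and 90.5 in MCF10A, against 15.1 and 48.2 in G12V. At HOXB5–HOXB6, the remaining group 5 site, they were 85.0 and 92.6 in MCF10A, against 73.5 and 97.3 in G12V. The cell types overlapped there, which gives that site no direction to compare. At HOXB6–HOXB7 the percentiles were 24.5 and 34.7 in MCF10A, against 60.5 and 85.2 in G12V. No test of single sites was made, since the lists hold no read counts for all sites, and these values are a description.

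The local background moved with some of these sites. It was recovered from the fold enrichment and p-value of each peak and is given relative to the genome-wide rate of the library. At HOXA5–HOXA6 it was 1.79 and 1.48 in MCF10A, against 2.40 and 3.40 in G12V, and at HOXC5–HOXC6 it was 1.25 and 1.73 in MCF10A, against 3.98 and 3.40 in G12V. At HOXB9–HOXB13, the site at chr17:46748970-46749522, it was 2.36 and 1.09 in MCF10A, against 2.98 and 3.54 in G12V. At these 3 sites it was higher in both G12V libraries, where the rank was lower. At HOXA6–HOXA7, also lower by rank, it overlapped, with 1.28 and 1.16 in MCF10A, against 1.06 and 2.27 in G12V. A background higher in both G12V libraries was also seen where the ranks overlapped. At HOXA10–HOXA11 it was 2.36 and 2.18 in MCF10A, against 2.40 and 4.54 in G12V. At the HOXB flank site chr17:46868401-46868821 it was 1.37 and 3.27, against 3.98 and 3.40. At the sites above by rank it overlapped, as at HOXB6–HOXB7 with 2.24 and 3.21, against 1.99 and 2.60. Over the common sites of HOXB its median was 2.30 and 2.72 in MCF10A, against 2.59 and 3.40 in G12V, and over all peaks 1.79 and 2.18 in MCF10A, against 1.99 and 2.27 in G12V. At the 4 sites below by rank the local background was 1 to 4 reads, so it rests on few reads. The summit pileup per M reads of the calling depth overlapped between the cell types at all 4. At HOXA5–HOXA6 it was 1.88 and 4.18 in MCF10A, against 1.18 and 3.42 in G12V. At HOXC5–HOXC6 it was 1.88 and 4.18, against 1.62 and 4.65. At the HOXB9–HOXB13 site it was 2.10 and 3.22, against 1.69 and 5.00, and at HOXA6–HOXA7 1.83 and 2.96, against 1.25 and 3.42. The part of the background in the order of the ranks was not tested.

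A p53 site was found at 1 place in the HOX windows, which is 0.0760 sites per 100 kb, against 0.0963 over the genome. The p53 lists held 1718 and 885 peaks in MCF10A, against 477 and 2619 in G12V, and 0, 0, 0 and 1 of these lay in the windows. The peak of G12V replicate 2, at chr17:46755873-46756278 in an intron of LINC02086 between HOXB9 and HOXB13, had a fold enrichment of 12.4 and ranked 689 of its list. It overlapped the CTCF site at chr17:46755555-46756222, with the summits 104 bp apart. Over the genome 92 of 2980 p53 sites (3.09%) overlapped a CTCF site. The 150 bp around the p53 summit held no p53 motif with at most 3 mismatches and 0 copies of the AP-1 motif TGACTCA or TGAGTCA on either strand. Over all p53 sites 70.4% had the p53 motif and 6.71% the AP-1 motif. The peak was in the longest p53 list and has no replicate.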

How the data were processed

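ChIP-seq for CTCF and p53 was analysed in 8 libraries (16 samples with inputs), grouped by sample title. The authors aligned reads to hg19 with Bowtie and called peaks per library with MACS2 against input, keeping reads with a unique alignment. For their own comparisons they pooled replicates, but each deposited list came from 1 library. The deposited lists give a score, a fold enrichment (a ratio over local background), −log10 p and −log10 q values and the summit, which were used as deposited. The lists hold no read totals. Summit pileup and background were solved from fold and −log10 p, which worked for 90.6 to 100% of peaks and gave calling depths of 10.7 to 13.5 M reads for CTCF and 9.26 to 23.9 M for p53 (M is 1e6), for a mappable genome of 2.7 Gb. The solver was checked on simulated data. Genes were taken from GENCODE release 44 on GRCh37 (coding parts and starts of canonical transcripts) and sequences from GRCh37. Coordinates are 1-based. The CTCF core motif had 12 letters, and the p53 motif was a pair of adjacent half-sites. Exact two-sided permutation tests were run in Python 3.11.15 with SciPy 1.17.1 and sequences read with pysam 0.24.0. All CTCF sites of the gene spans, cell-type-specific sites, p53 sites, the strongest site of each cluster and 8 cofactor genes were named by rule, and flanks were given by counts. A further gene of the list is not reported here. The members and lists were chosen with earlier results of these data known. Alternatives covered the flank, a −log10 q of at least 5, lists of equal length, merging at 50% overlap, motif mismatches and window, left-out libraries and a replicate block.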

Additional observations from a re-analysis of the deposited data

How the results depend on the processing

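Of 111 recomputed values, 84 kept their direction and side of the threshold or, without a test, moved by less than the spread between replicates or, for counts, by no more than 1.5 times. The differences between cell types were smaller than the spread between replicates and changed sign readily. The difference in HOX peaks (G12V minus MCF10A) was 0.5, and it was -1.5 without the flanks and between -4 and 5 when leaving out 1 library, with the sign turned without MCF10A replicate 1 or G12V replicate 2. The difference in the share of the list, -0.0256 percentage points, became 0.00881 with lists of equal length and ranged from -0.0660 to 0.0147 without 1 library, turning without the same libraries. That in median percentile, 0.306, became -1.31 without the flanks, -0.256 at a −log10 q of at least 5 and -1.78 with equal lists, and ranged from -5.63 to 6.24 without 1 library, turning without MCF10A replicate 2 or G12V replicate 2. With 2 libraries a cell type no p-value of these could pass a threshold of 0.05, so no setting could end or make a call. The motif share, 31.4%, was 29.2% without the flanks, 29.4% at the stricter q, 33.3% with equal lists, 2.86% without mismatches, 74.3% with 2 mismatches and 29.4 to 32.4% without 1 library. Sites ranked above in G12V numbered 3 in place of 6, and in HOXB 2 in place of 5, both without the flanks and with equal lists, while sites ranked below stayed at 4. Sites in all 4 libraries numbered 13 with equal lists. HOX CTCF sites in all libraries kept numbered 19 to 24, and the median spacing was 13.6 to 13.9 kb, without 1 library. The p53 site was absent (0 sites) with equal lists and without G12V replicate 2, and the number was 0 to 1 over the libraries left out.

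Site by site, the deviations of replicate 1 in the 2 cell types from their group means correlated at r = 0.0488 over 8006 sites. Such a correlation does not show a shift shared by all sites of a library. In both cell types the replicate 2 list was the longer one. Its median fold enrichment was 8.89 in MCF10A and 9.99 in G12V, against 7.10 and 7.16 in replicate 1. With a replicate block the differences were 0.5 peaks, -0.0256 percentage points and 0.306 percentiles, and the sign-flip test over 2 pairs cannot give a p below 0.5. The 9 HOX sites missing from 1 library were missing from the shorter lists. The solved calling depths were 12.1 and 13.5 M reads for these, against 10.9 and 10.7 M for the longer ones. They are not the read totals of the ChIP libraries, and the part of depth was not tested.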
